A study of Mus musculus with 18 samples.

Results

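Myostatin and transforming growth factor beta (TGF-beta) are secreted ligands of 1 signalling family, and 10 genes of that family were described in mouse tibialis anterior muscle: the ligands Mstn, Tgfb1, Tgfb2 and Tgfb3, the receptors Acvr2b, Acvr1b, Tgfbr1 and Tgfbr2, and the intracellular proteins Smad3 and Smad7. They were listed by name, by a rule that uses no measured value, from the 20922 genes of the deposited expression table. Earlier results of these data were known when the list was made. All 10 are in the table, and all 10 had a mean of at least 10 normalized counts over the libraries, the level from which genes were tested. Background of the pathway: a ligand of the family binds a type II receptor, which joins and phosphorylates a type I receptor, and the type I receptor phosphorylates Smad2 and Smad3, which enter the nucleus with Smad4 and regulate genes. Myostatin signals through activin receptors and is known as a brake on skeletal muscle growth, while TGF-beta is known in muscle for the control of connective tissue and of regeneration. The ligands are made as latent precursors that extracellular proteins hold, release or block.

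The study asked how loss of the circadian activator BMAL1 in skeletal muscle affects the limb after its main artery is tied off, as a model of peripheral artery disease. RNA was sequenced from 18 tibialis anterior samples in 4 groups: 4 from ligated and 5 from intact limbs of BKO mice, and 4 from ligated and 5 from intact limbs of WT mice. Both genotypes carry floxed Bmal1 alleles and were described with an ACTA-rtTA-TRE-Cre transgene, which drives a doxycycline-dependent Cre recombinase from a skeletal actin promoter, so deletion was aimed at the myofibre of adult mice and other cells of the muscle keep the gene. The labels give that transgene as +/+ for WT and -/- for BKO, the opposite of what the group names say, and the direction of every genotype comparison here rests on the group names. Doxycycline was given by gavage, the femoral artery of 1 hindlimb was ligated a week after the last dose, and the muscles of the ligated and of the opposite, intact limb were taken on day 36 after surgery. The labels say neither at what time of day the muscles were taken nor, in so many words, that each sample came from a separate animal, so the p-values here reflect variation among the sequenced samples.

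Each library held 14089381 to 25629204 reads assigned to genes. The mitochondrial ribosomal RNA mt-Rnr2 took 40.9 to 55.5% of the reads in BKO ligated, 33.6 to 36.1% in BKO intact, 38.1 to 45.3% in WT ligated and 31.9 to 34.3% in WT intact libraries, with the 2 highest shares in BKO ligated libraries 4 and 5. Bmal1, listed as Arntl, stood at 63.8 to 82.0 normalized counts in BKO ligated and 42.4 to 61.1 in BKO intact libraries, against 12.2 to 18.3 in WT ligated and 41.3 to 68.4 in WT intact libraries. A total over all exons does not check the deletion of some of them, and by this total the labels could not be checked. Dbp and Nr1d2, direct targets of BMAL1, were lower in BKO than in WT libraries in ligated and in intact limbs, with no overlap (Dbp 226 to 346 and 178 to 233 in BKO, against 682 to 867 and 601 to 791 in WT). Myofibre markers were the highest of the marker lists in every group. In bulk tissue, fewer cells of a type and less RNA per cell cannot be told apart.

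Mstn had the largest fall with ligation of the 10 genes. It was 2.95-fold lower in ligated than in intact BKO limbs and 5.05-fold lower in ligated than in intact WT limbs, and Smad3, Tgfb3, Tgfb2 and Tgfbr1 fell with ligation in both genotypes too. Acvr2b, a type II receptor of myostatin, rose in both. The genotype comparisons moved other members: Acvr1b and Tgfbr2 were lower, and Tgfb3 was higher, in BKO than in WT limbs, ligated and intact alike. With ligation, 8 of the 10 genes passed the test in BKO limbs (3 higher and 5 lower, where 47.2% of all 12262 tested genes passed) and 6 in WT limbs (1 higher and 5 lower, where 39.8% passed). Between BKO and WT, 3 of 10 passed in ligated limbs (1 higher and 2 lower in BKO, against 4.16% and 4.68% of all genes, 8.84% in all) and 4 of 10 in intact limbs (1 higher and 3 lower, against 8.56% and 9.75% of all genes, 18.3% in all). In the fit of all 18 libraries, the ligation effect itself differed between the genotypes for 1 of the 10, Mstn (6.01% of all genes, 3.04% higher and 2.97% lower). That call did not hold in 12 of the 18 fits with 1 library left out. The test was limma on log2(normalized count + 1) across all tested genes, with a Benjamini-Hochberg adjusted p under 0.05, and log2 fold changes are on that scale with their standard error (SE).

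**Figure D1:**
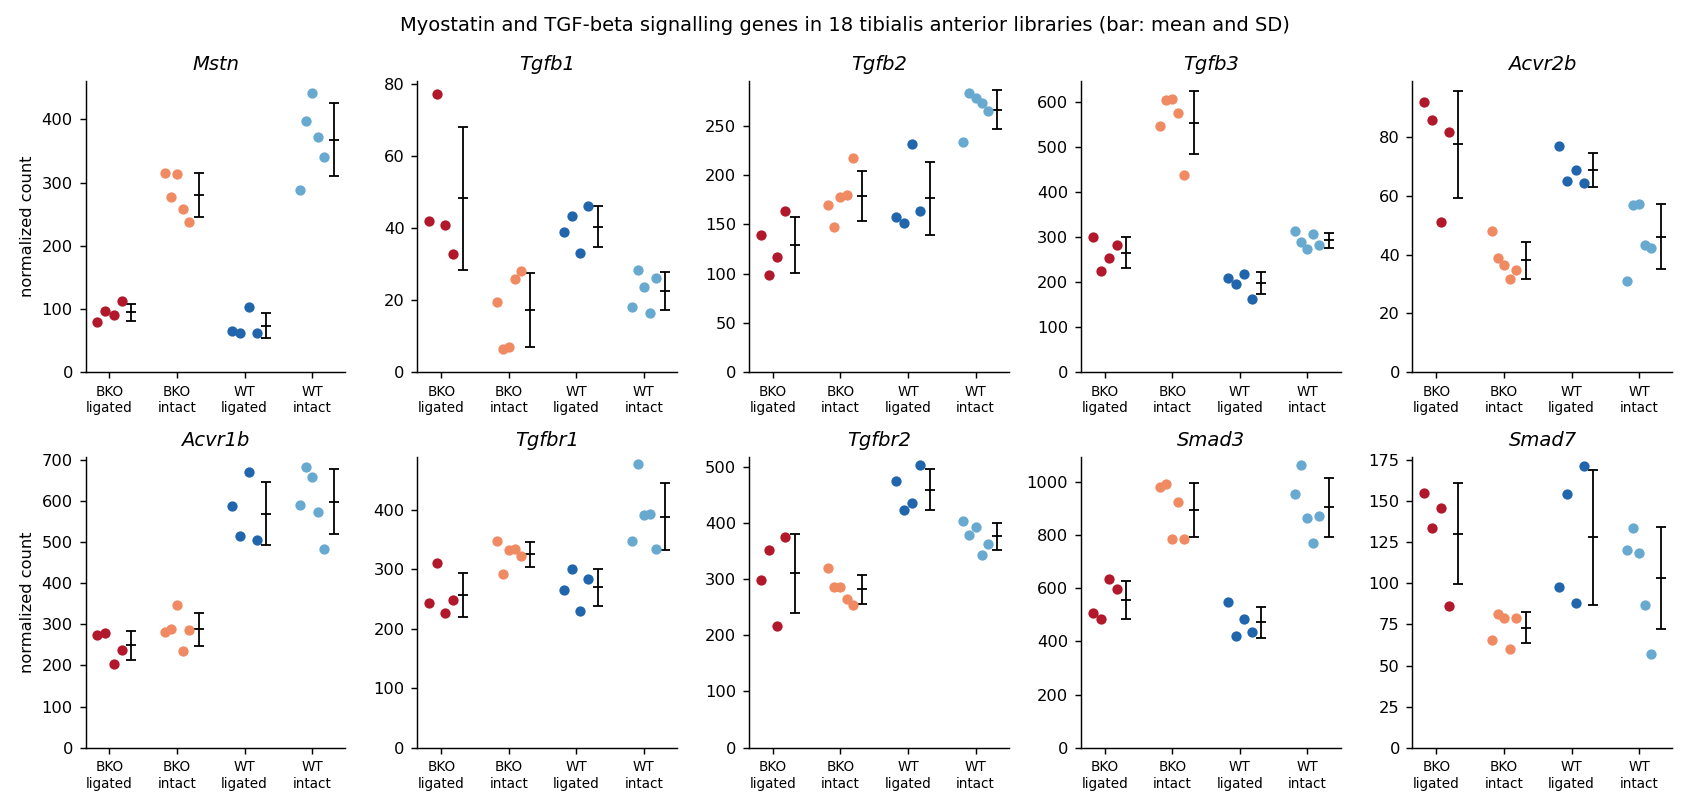
Normalized counts (y axis, linear, a scale of its own in each panel) of the 10 genes in each of the 18 libraries (points), by group, with the group mean and SD (bars). Mstn lies between 61.8 and 112 in all 8 ligated libraries and between 237 and 441 in all 10 intact ones, while Acvr1b separates the genotypes in both limbs.

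Promoter sequence was examined for the members with a RefSeq promoter window (GRCm38.p6, 250 bases before to 50 after the transcription start), which was found for 8 of the 10 genes. Tgfb3 and Smad7 had no window and were not searched. The E-box CACGTG, the element to which BMAL1 binds with its partner CLOCK, was present in the window of 2 members, Acvr1b at -54 to -49 and Tgfb2 at -51 to -46 from the start. Of all windows in the reference, 7.15% hold it (8.09% of genes). The window of Tgfbr2, a member also lower in BKO than in WT limbs, holds 0 matches to CACGTG. The TATA box letters TATAAA were present in Tgfb2 at -31 to -26 and in Mstn at -29 to -24, and in 13.6% of all windows (15.7% of genes). The letters GTCTAGAC, a palindromic Smad-binding element, were in 0 of the members' windows and in 0.213% of all windows. All 3 motifs were searched on both strands, and none of the matches overlapped another. The 250 bases before the start are shown for the 2 genes with the E-box, which were both lower in BKO than in WT intact limbs, and for Mstn, which had the largest fall with ligation. They are written 5′ to 3′ on the strand of the gene, with CACGTG and TATAAA in capitals; a match describes the letters and is not evidence of binding.
Acvr1b (chr15:101173822-101174071, plus strand): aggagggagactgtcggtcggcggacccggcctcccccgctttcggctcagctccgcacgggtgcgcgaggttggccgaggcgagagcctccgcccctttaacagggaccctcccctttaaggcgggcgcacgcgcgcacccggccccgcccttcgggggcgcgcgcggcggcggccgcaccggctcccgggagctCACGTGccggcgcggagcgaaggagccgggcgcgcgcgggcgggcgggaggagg
Tgfb2 (chr1:186705990-186706239, minus strand): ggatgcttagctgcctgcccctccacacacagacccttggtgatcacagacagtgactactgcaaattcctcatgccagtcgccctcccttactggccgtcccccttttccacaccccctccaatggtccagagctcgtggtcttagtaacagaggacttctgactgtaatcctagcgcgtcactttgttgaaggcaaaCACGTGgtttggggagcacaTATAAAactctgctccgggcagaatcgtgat
Mstn (chr1:53061390-53061639, plus strand): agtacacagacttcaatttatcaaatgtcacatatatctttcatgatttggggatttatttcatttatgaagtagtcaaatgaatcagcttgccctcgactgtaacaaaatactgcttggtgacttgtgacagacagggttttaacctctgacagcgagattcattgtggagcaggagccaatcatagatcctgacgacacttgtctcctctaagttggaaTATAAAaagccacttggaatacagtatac

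Mstn (chr1:53061640-53068079, plus strand; GRCm38, the mm10 build, as are all gene coordinates here, from the GENCODE M21 annotation) encodes myostatin, which myofibres secrete. Its values in BKO muscle were 80.0, 96.9, 89.9 and 112 normalized counts in ligated limbs and 315, 277, 314, 259 and 237 in intact limbs. In WT muscle they were 65.6, 62.4, 103 and 61.8 in ligated limbs and 289, 398, 441, 372 and 340 in intact limbs. Every ligated library was below every intact library, whichever the genotype, and within each limb the genotypes overlapped. Mstn fell with ligation by 1.56 ± 0.15 (SE) on the log2 scale in BKO (limma, adjusted p = 1.09e-07) and by 2.34 ± 0.15 in WT (limma, adjusted p = 6.56e-10). The log2 change in BKO minus the log2 change in WT was 0.78 ± 0.22 on the log2 scale (95% interval 0.33 to 1.23; limma, adjusted p = 0.0371), so the fall was smaller in BKO. That difference is made of a BKO mean of 94.6 ± 13.4 against a WT mean of 73.1 ± 19.8 in ligated limbs (SD, n = 4 each; log2 difference 0.39 ± 0.16, adjusted p = 0.147) and of 280 ± 34.1 in BKO against 368 ± 57.7 in WT intact limbs (SD, n = 5 each; -0.39 ± 0.14, adjusted p = 0.069). Neither of these 2 differences passed limma in the fit of all 18 libraries. The interaction passed in the fit of all 18 libraries and no longer passed when any of 12 single libraries was left out (BKO ligated 4, 5 or 6, BKO intact 2, 4 or 5, WT ligated 2, 4 or 6, WT intact 3, 4 or 5), with adjusted p up to 0.0813 and a log2 difference between 0.69 and 0.95 over all 18 omissions. It did not pass either without BKO ligated libraries 4 and 5 together (adjusted p = 0.111), with no filter on low values (adjusted p = 0.0521) or with the fixed replicate block (adjusted p = 0.0957). WT ligated library 5 was the highest of its group, and without it the BKO minus WT difference in ligated limbs was 0.56 and passed (limma, adjusted p = 0.0222). In intact limbs the Mstn difference passed with edgeR and DESeq2 on the recovered reads (adjusted p = 0.0372 and 0.0257). It passed in limma with only the intact libraries in the fit (adjusted p = 0.0346), without WT intact library 2 (adjusted p = 0.0309) or WT ligated library 5 (adjusted p = 0.0301).

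The 5 genes whose profile over the 18 libraries lay closest to that of Mstn were Wfikkn2, Zbtb38, Tuba8, mt-Nd1 and Rbm38. Closeness was the root mean square difference of log2(normalized count + 1), each gene centred on its own mean, over 8556 genes with a mean of at least 50. It was 0.33 for Wfikkn2, which encodes a secreted protein that binds and inhibits myostatin, and 0.34, 0.35, 0.36 and 0.37 for the other 4, against a median of 1.01 over all compared genes, which is also the value that a gene with no variation over the libraries would give. Wfikkn2 averaged 28.2 ± 3.35 normalized counts in BKO ligated and 106 ± 18.9 in BKO intact libraries, and 30.0 ± 8.80 in WT ligated and 99.9 ± 19.4 in WT intact libraries (SD). Zbtb38, which encodes a zinc finger protein that binds methylated DNA, averaged 526 ± 46.3 in BKO ligated and 1381 ± 94.5 in BKO intact libraries, and 432 ± 50.7 in WT ligated and 1326 ± 46.5 in WT intact libraries. Tuba8 encodes an alpha tubulin, mt-Nd1 a complex I subunit made from mitochondrial DNA, and Rbm38 an RNA-binding protein. As their selection implies, all 5 genes shared the pattern of Mstn, below their own mean in the 8 ligated and above it in the 10 intact libraries. Among the members, Smad3 ranked nearest, at 266 of 8556.

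**Figure D2:**
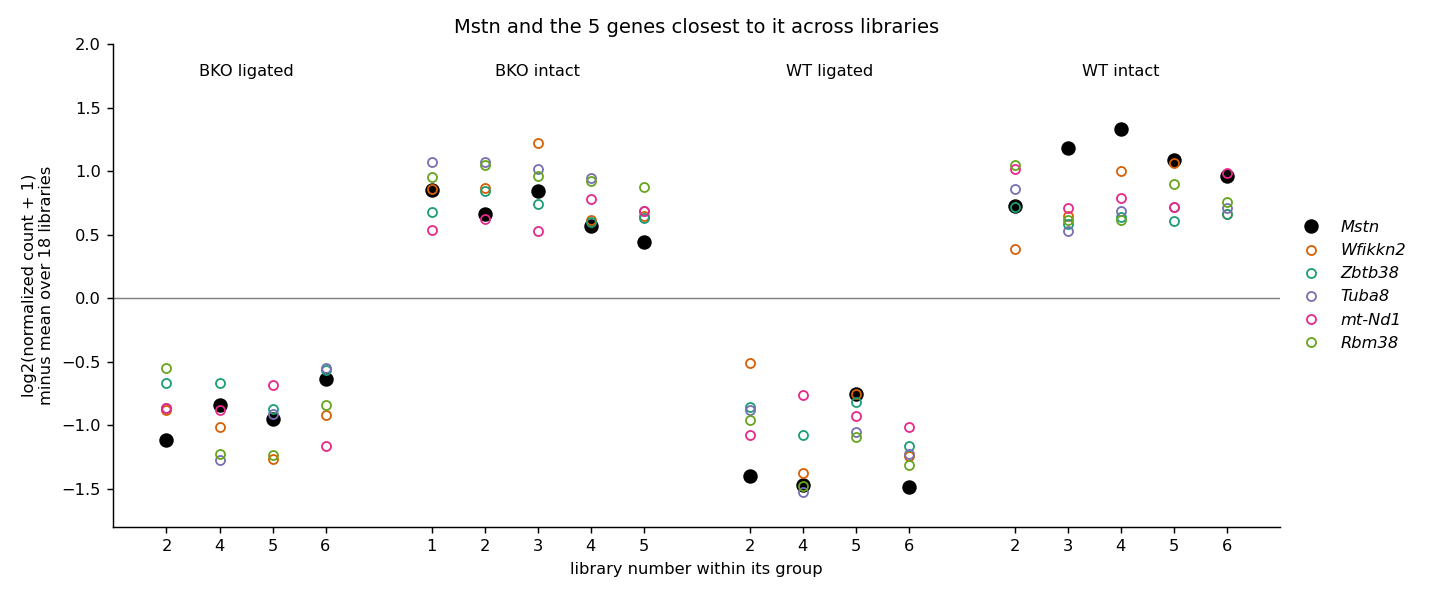
Log2(normalized count + 1) minus the gene's mean over the 18 libraries (y axis), for Mstn (filled) and the 5 genes closest to it (open), in each library by its number (x axis). All 6 genes lie below 0 in the ligated and above 0 in the intact libraries of both genotypes.

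Of the 3 TGF-beta ligands, Tgfb3 and Tgfb2 fell with ligation in both genotypes and Tgfb1 rose in BKO. Differences between the ligands were not tested. Tgfb3 (chr12:86056745-86079041, minus strand) was the most abundant of them per length of transcript. In ligated BKO limbs it stood at 301, 223, 254 and 283 normalized counts and in intact BKO limbs at 546, 604, 606, 574 and 437. The WT values were 210, 195, 219 and 163 in ligated and 312, 289, 274, 307 and 282 in intact limbs. BKO intact libraries stood above all others, WT ligated libraries below all others, and BKO ligated and WT intact libraries overlapped. Tgfb3 fell with ligation by 1.06 ± 0.11 (SE) on the log2 scale in BKO and by 0.58 ± 0.11 in WT (limma, adjusted p = 2.68e-07 and 0.000313). In intact limbs it was 1.88-fold higher in BKO than in WT (0.91 ± 0.10, limma adjusted p = 3.21e-06). In ligated limbs it was 1.35-fold higher in BKO (0.43 ± 0.12, limma adjusted p = 0.0236), with 223 as the lowest BKO value and 219 as the highest WT value. This last difference did not pass without BKO ligated library 2 or 6 or WT ligated library 6 (adjusted p = 0.0783, 0.0539 and 0.0914), nor with only the ligated libraries in the fit (adjusted p = 0.0815). The difference between the ligation effects, -0.48 ± 0.16, missed the threshold (limma, adjusted p = 0.0744) and passed with DESeq2 (adjusted p = 0.0389) and in limma without BKO intact library 5 or WT ligated library 6 (adjusted p = 0.0257 and 0.0417). Tgfb3 lies opposite Ttll5, a tubulin glutamylase gene on the other strand, and the sources used here do not give the strand setting of the counting. Ttll5 averaged 79.2 ± 10.5 normalized counts in BKO ligated and 96.2 ± 16.9 in BKO intact libraries, and 62.4 ± 9.86 in WT ligated and 83.4 ± 43.5 in WT intact libraries (SD), and passed in none of the 5 comparisons.

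Tgfb2 (chr1:186622792-186705989, minus strand) differed between genotypes in the direction opposite to Tgfb3. BKO muscle gave 139, 98.2, 116 and 163 normalized counts in ligated and 170, 147, 178, 180 and 218 in intact limbs. WT muscle gave 158, 152, 232 and 164 in ligated and 234, 283, 278, 274 and 265 in intact limbs. WT intact libraries were above all others, and the other 3 groups overlapped. In intact limbs Tgfb2 was 1.50-fold lower in BKO than in WT (-0.58 ± 0.14, limma adjusted p = 0.00483), and in ligated limbs the difference of -0.45 ± 0.15 missed the threshold (adjusted p = 0.075). It passed there without BKO ligated library 6 (-0.57, adjusted p = 0.0223). Tgfb2 fell with ligation by 0.48 ± 0.15 in BKO and by 0.61 ± 0.15 in WT (limma, adjusted p = 0.0105 and 0.00224). The fall in BKO did not pass without library 4 of that group (fell by 0.36, adjusted p = 0.0572), nor without libraries 4 and 5, those with most mt-Rnr2 (fell by 0.23, adjusted p = 0.282). The antisense gene Gm29491 that overlaps Tgfb2 had 4 reads in all libraries together.

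Tgfb1 (chr7:25687002-25705077, plus strand), which encodes the ligand best known from fibrosis, was the least abundant member and moved the other way. Its values in BKO muscle were 42.0, 77.3, 40.9 and 32.8 normalized counts in ligated limbs and 19.6, 6.32, 6.89, 26.0 and 28.0 in intact limbs. In WT muscle they were 38.9, 43.4, 33.1 and 46.1 in ligated limbs and 18.1, 28.4, 23.7, 16.4 and 26.1 in intact limbs. Ligated libraries were above intact libraries in both genotypes, and the genotypes overlapped in both limbs. Tgfb1 rose 2.99-fold with ligation in BKO (1.58 ± 0.37, limma adjusted p = 0.00137), and the WT difference of 0.83 ± 0.37 missed the threshold (adjusted p = 0.0764). The WT difference passed with DESeq2 (adjusted p = 0.0418), with only the WT libraries in the fit (adjusted p = 0.00812) and without BKO intact library 2 (adjusted p = 0.0469). The 2 lowest BKO intact values rest on 6 and 7 reads. Between the ligation effects the difference was 0.75 ± 0.52 (95% interval -0.33 to 1.83), which did not pass (limma, adjusted p = 0.425).

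Per kilobase of exon, the share of Tgfb3 in the sum of the 3 TGF-beta ligands was 71.0 ± 2.79% in BKO ligated and 82.4 ± 4.55% in BKO intact libraries, and 60.2 ± 3.57% in WT ligated and 63.1 ± 2.95% in WT intact libraries (SD, n = 4 ligated and 5 intact). The share of Tgfb2 was 20.1 ± 2.74% and 15.8 ± 3.56% in BKO ligated and intact libraries, and 31.4 ± 3.82% and 33.6 ± 2.41% in WT ligated and intact libraries. BKO libraries thus held proportionally more Tgfb3 and less Tgfb2 transcript than WT libraries in both limbs, with no overlap between genotypes. Tgfb1 made up 8.95 ± 4.53% and 1.79 ± 1.15% in BKO ligated and intact libraries, and 8.46 ± 2.04% and 3.26 ± 0.763% in WT ligated and intact libraries. The sum of the 3 was 110 ± 11.2 and 198 ± 15.6 normalized counts per kilobase in BKO ligated and intact libraries, and 96.6 ± 10.8 and 137 ± 3.41 in WT ligated and intact libraries. These shares are descriptions and were given no test; the exon length is that of all annotated exons of a gene, not of the transcripts in use.

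**Figure D3:**
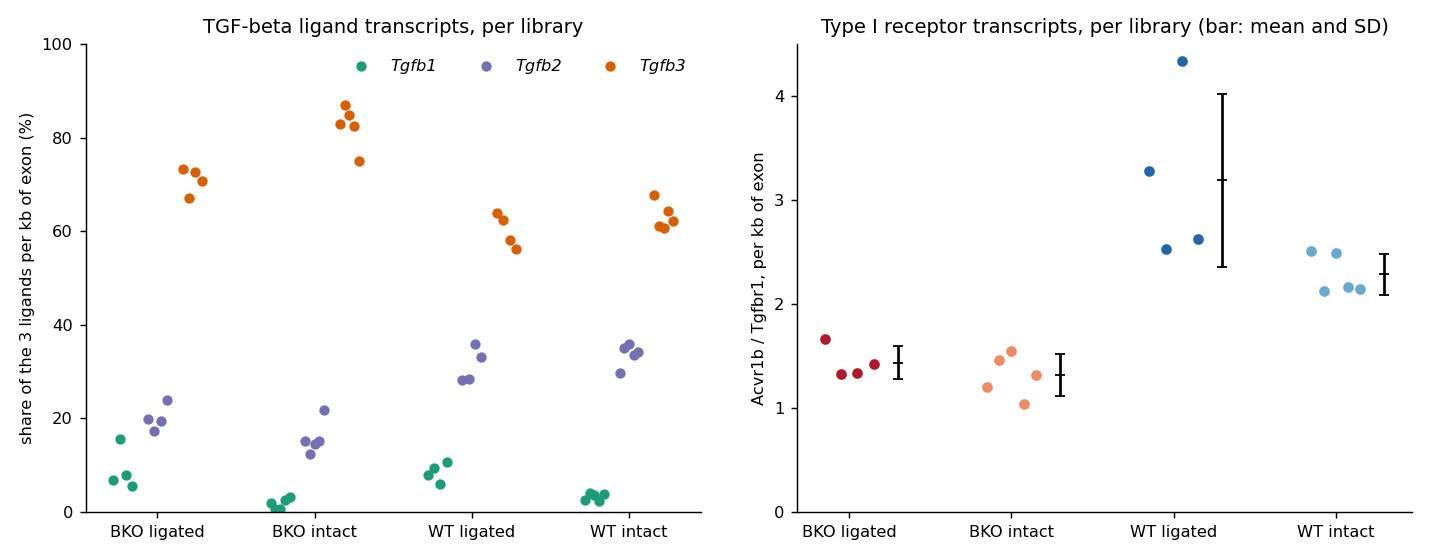
Left, share (y axis, percent) of Tgfb1, Tgfb2 and Tgfb3 in their sum per kilobase of exon in each library (points), by group. Right, ratio of Acvr1b to Tgfbr1 per kilobase of exon in each library (points), with mean and SD (bars). Tgfb3 holds 67.2 to 87.0% in BKO and 56.3 to 67.8% in WT libraries over both limbs, and the receptor ratio is at most 1.67 in every BKO library and at least 2.12 in every WT library.

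Among the receptors, Acvr1b (chr15:101174067-101213684, plus strand) showed the largest genotype difference of the 10 genes. It encodes ALK4, a type I receptor of activin and myostatin. In ligated BKO limbs it stood at 275, 279, 203 and 238 normalized counts and in intact BKO limbs at 282, 289, 348, 234 and 286. The WT values were 587, 514, 671 and 505 in ligated and 590, 683, 659, 574 and 483 in intact limbs. The highest BKO library, at 348, was below the lowest WT library, at 483, over both limbs. Acvr1b was 2.29-fold lower in BKO than in WT ligated limbs (-1.19 ± 0.13, limma adjusted p = 2.65e-06) and 2.08-fold lower in intact limbs (-1.05 ± 0.12, limma adjusted p = 2.28e-06). It did not pass with ligation in BKO (-0.21 ± 0.13, 95% interval -0.47 to 0.05, adjusted p = 0.181) or in WT (-0.07 ± 0.13, 95% interval -0.33 to 0.19, adjusted p = 0.689).

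Tgfbr2 (chr9:116084293-116175360, minus strand), the type II receptor of TGF-beta, followed the same order of genotypes at a smaller size. BKO muscle gave 299, 351, 217 and 374 normalized counts in ligated and 319, 287, 286, 264 and 254 in intact limbs. WT muscle gave 475, 423, 435 and 503 in ligated and 404, 378, 393, 343 and 362 in intact limbs. Within each limb all BKO libraries were below all WT libraries, though BKO ligated libraries reached into the range of WT intact ones. Tgfbr2 was 1.51-fold lower in BKO than in WT ligated limbs (-0.59 ± 0.13, limma adjusted p = 0.00493) and 1.34-fold lower in intact limbs (-0.42 ± 0.11, limma adjusted p = 0.0143). With ligation the difference was 0.11 ± 0.12 in BKO (adjusted p = 0.47) and 0.29 ± 0.12 in WT (adjusted p = 0.0685), where the groups did not overlap. The WT difference passed with edgeR (adjusted p = 0.0361), DESeq2 (adjusted p = 0.0352), TMM scaling (adjusted p = 0.0457) and only WT libraries in the fit (adjusted p = 0.017). BKO ligated library 5 was the lowest of its group, and without it both ligation differences passed (0.27 in BKO, adjusted p = 0.0309; 0.29 in WT, adjusted p = 0.0167).

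Acvr2b (chr9:119402118-119434995, plus strand) encodes a type II receptor that binds myostatin. Its values in BKO muscle were 91.9, 85.9, 51.1 and 81.6 normalized counts in ligated limbs and 48.0, 39.0, 36.4, 31.8 and 34.8 in intact limbs. In WT muscle they were 77.0, 65.1, 68.8 and 64.2 in ligated limbs and 31.0, 56.9, 57.2, 43.3 and 42.1 in intact limbs. Ligated libraries were above intact ones in both genotypes, and the genotypes overlapped in both limbs. Acvr2b rose 1.99-fold with ligation in BKO (0.99 ± 0.19, limma adjusted p = 0.000293) and 1.51-fold in WT (0.60 ± 0.19, limma adjusted p = 0.0182). The WT rise did not pass without WT intact library 2 (0.47, adjusted p = 0.0544) or WT ligated library 2 (0.54, adjusted p = 0.0553).

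Tgfbr1 (chr4:47353222-47414931, plus strand) encodes ALK5, the type I receptor of TGF-beta. In ligated BKO limbs it stood at 244, 310, 226 and 247 normalized counts and in intact BKO limbs at 348, 292, 333, 333 and 321. The WT values were 265, 301, 229 and 284 in ligated and 347, 476, 391, 393 and 333 in intact limbs. Ligated libraries were below intact ones in WT, and in BKO 1 ligated library, number 4, reached into the intact range. Tgfbr1 fell with ligation by 0.35 ± 0.11 on the log2 scale in BKO and by 0.52 ± 0.11 in WT (limma, adjusted p = 0.015 and 0.000976). The fall in BKO did not pass without BKO ligated library 5 (fell by 0.29, adjusted p = 0.0597). Between genotypes it did not pass in ligated limbs (-0.07 ± 0.12, 95% interval -0.32 to 0.17, adjusted p = 0.77) or in intact limbs (-0.24 ± 0.11, 95% interval -0.47 to -0.02, adjusted p = 0.121). The ratio of Acvr1b to Tgfbr1 per kilobase of exon was 1.44 ± 0.159 in BKO ligated and 1.31 ± 0.202 in BKO intact libraries, and 3.19 ± 0.832 in WT ligated and 2.29 ± 0.198 in WT intact libraries (SD), with no overlap between genotypes. The ratio was given no test.

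Of the intracellular members, Smad3 (chr9:63646767-63757994, minus strand), the transducer that both ligands share, was the most abundant member per kilobase of exon over the 18 libraries. BKO muscle gave 508, 485, 634 and 598 normalized counts in ligated and 979, 991, 784, 924 and 784 in intact limbs. WT muscle gave 547, 420, 482 and 435 in ligated and 954, 1061, 863, 770 and 869 in intact limbs. All 8 ligated libraries were below all 10 intact ones, and the genotypes overlapped in both limbs. Smad3 fell with ligation by 0.68 ± 0.11 on the log2 scale in BKO (1.61-fold) and by 0.94 ± 0.11 in WT (1.91-fold; limma, adjusted p = 4.19e-05 and 1.22e-06). Between genotypes its difference was 0.24 ± 0.12 in ligated limbs (adjusted p = 0.228) and -0.02 ± 0.10 in intact limbs (95% interval -0.23 to 0.20, adjusted p = 0.939).

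Smad7 (chromosome 18, plus strand) encodes the inhibitory Smad that TGF-beta itself induces. Its values in BKO muscle were 155, 134, 146 and 86.0 normalized counts in ligated limbs and 65.8, 81.1, 78.8, 60.3 and 78.9 in intact limbs. In WT muscle they were 98.0, 155, 87.9 and 171 in ligated limbs and 120, 134, 118, 86.7 and 57.2 in intact limbs. The limbs did not overlap in BKO and overlapped in WT. Smad7 rose 1.74-fold with ligation in BKO (0.80 ± 0.24, limma adjusted p = 0.00871) and did not pass in WT (0.31 ± 0.24, 95% interval -0.18 to 0.81, adjusted p = 0.315), and the difference between these effects did not pass (0.49 ± 0.33, adjusted p = 0.421). The rise in BKO did not pass without BKO ligated libraries 4 and 5, those with most mt-Rnr2 (0.66, adjusted p = 0.107). In intact limbs Smad7 was 0.44 lower in BKO than in WT on the log2 scale, which did not pass (limma, adjusted p = 0.19) and passed without WT intact library 6 (-0.64, limma adjusted p = 0.035). In the limma fit of all 18 libraries, no member other than Tgfb3, Acvr1b, Tgfb2 and Tgfbr2 passed in either genotype comparison.

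**Figure D4:**
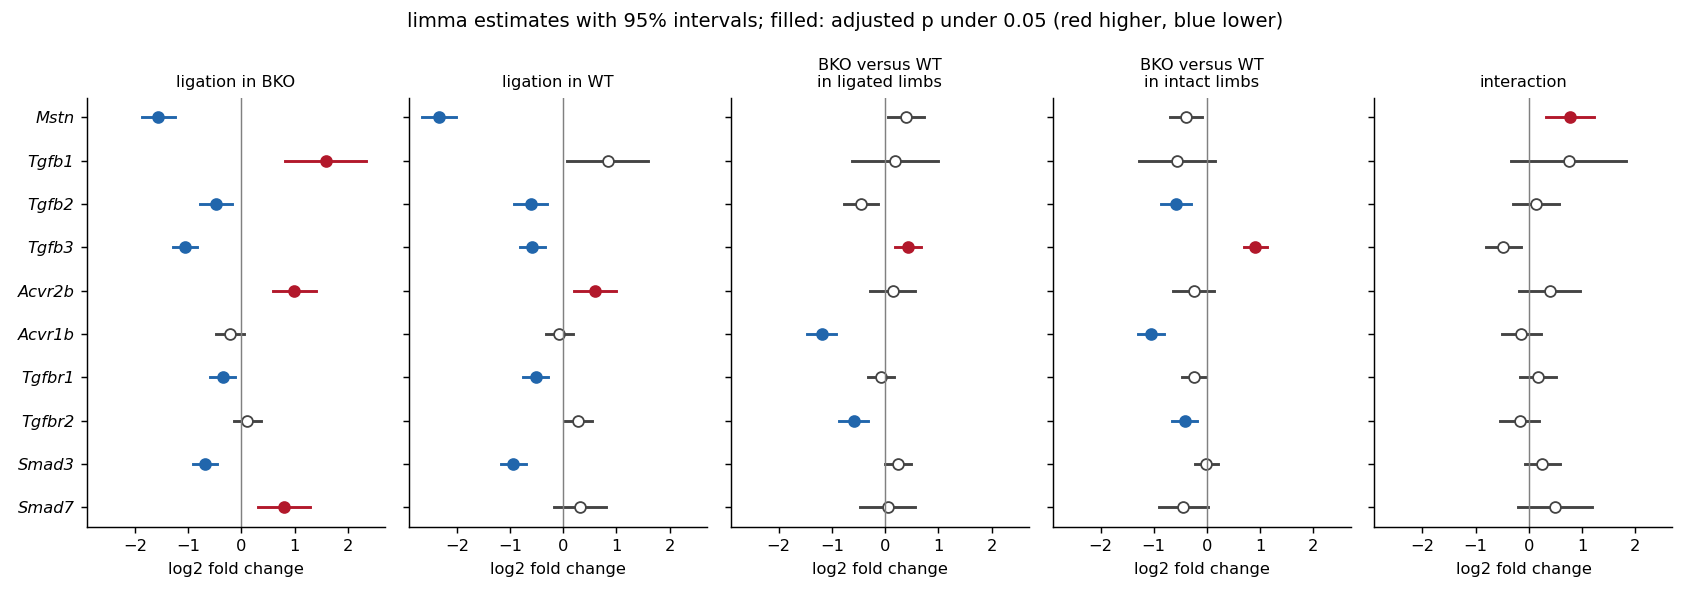
Log2 fold changes (x axis) of the 10 genes from limma with 95% intervals, in 5 panels: ligated against intact limbs in BKO and in WT, BKO against WT in ligated and in intact limbs, and the interaction (change with ligation in BKO minus change with ligation in WT). Filled points passed at an adjusted p under 0.05; Mstn has the lowest point of both ligation panels and the only filled point of the interaction panel.

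Over the members, the 2 groups compared did not overlap for 6 of 10 genes with ligation in BKO (35.7% of all tested genes) and for 8 of 10 with ligation in WT (32.5%). They did not overlap for 3 of 10 between genotypes in ligated limbs (12.9%) and for 4 of 10 in intact limbs (14.4%). The median log2 fold change over the 10 genes was -0.28 with ligation in BKO and -0.29 in WT, where the medians over all tested genes were -0.0036 and -0.0025.

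Genes around the members were followed in 6 lists. Of the other ligands, 8 of 12 were tested, and with ligation 3 rose and 1 fell in BKO and 2 rose and 1 fell in WT (22.1% of all genes rose and 25.1% fell in BKO, 18.7% and 21.1% in WT). Gdf11, the closest relative of myostatin, averaged 53.1 ± 13.3 normalized counts in BKO ligated and 82.5 ± 14.1 in BKO intact libraries, and 51.1 ± 13.8 in WT ligated and 140 ± 26.3 in WT intact libraries (SD). It fell with ligation in BKO and in WT (limma, adjusted p = 0.0123 and 7.37e-06) and was lower in BKO than in WT intact limbs (-0.75 ± 0.19, limma adjusted p = 0.00726). Inhbb, which encodes an activin subunit, stood at 20.7 ± 1.85 in BKO ligated and 3.91 ± 2.60 in BKO intact libraries, and at 37.5 ± 4.14 in WT ligated and 5.05 ± 3.82 in WT intact libraries, and rose with ligation in both (limma, adjusted p = 9.41e-05 and 1.02e-05). Gdf10, a ligand related to the bone morphogenetic proteins (BMPs), rose too (1.45 ± 0.20 in BKO and 0.96 ± 0.20 in WT, limma adjusted p = 6.23e-06 and 0.000623), and Bmp2, which encodes a BMP, rose in BKO (0.94 ± 0.32, limma adjusted p = 0.02). In intact limbs Gdf10 and Bmp2 were lower in BKO than in WT with Gdf11, the 3 that passed of 8 (9.75% of all genes were lower). In ligated limbs 0 of 8 passed with limma, edgeR or DESeq2 (0 at an unadjusted limma p under 0.05), where 8.84% of all genes passed with limma. With only the ligated libraries in the fit 1 passed. The genotypes did not overlap there for 1 of the 8 (12.9% of all genes). This was Inhbb, at 18.6 to 22.5 in BKO ligated and 33.2 to 42.7 in WT ligated libraries. Without BKO ligated libraries 4 and 5 the fall of Gdf11 and the rise of Bmp2 in BKO did not pass (limma, adjusted p = 0.12 and 0.0703), and without WT ligated library 4 the count for ligation in WT was 5 of 8 (3 higher and 2 lower). The rise of Bmp2 did not pass either without BKO intact library 3 or BKO ligated library 2 or 4, with only BKO libraries in the fit or with the fixed replicate block (adjusted p up to 0.163). In intact limbs the Gdf10 difference did not pass without WT intact library 3 (adjusted p = 0.0544), nor the Bmp2 difference without BKO intact library 3 or WT intact library 4 (adjusted p = 0.0578 and 0.0605).

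Of 9 other receptors and co-receptors, 5 rose and 2 fell with ligation in BKO (22.1% and 25.1% of all genes). In WT 3 rose and 4 fell (18.7% and 21.1% of all genes). Acvr1c, which encodes ALK7, a type I receptor known from fat cells, stood at 19.5 to 120 normalized counts in BKO ligated and 0 to 1.70 in BKO intact libraries, and at 77.4 to 138 in WT ligated and 0 to 37.9 in WT intact libraries (limma, adjusted p = 1.51e-05 in BKO and 8.49e-05 in WT). Markers of fat cells moved with it: all 6 on the list rose with ligation in both genotypes, and their summed level was 804 to 3197 in BKO ligated and 22.2 to 100 in BKO intact libraries, and 2373 to 4703 in WT ligated and 44.4 to 160 in WT intact libraries. The BMP receptor Bmpr1b fell in both genotypes (1.64 ± 0.26 lower in BKO and 1.50 ± 0.26 lower in WT on the log2 scale, limma adjusted p = 2.93e-05 and 9.78e-05). Tgfbr3, the TGF-beta co-receptor betaglycan, averaged 494 ± 71.8 in BKO ligated and 302 ± 48.3 in BKO intact libraries, against 564 ± 42.3 in WT ligated and 491 ± 44.8 in WT intact libraries. It rose with ligation in BKO (limma, adjusted p = 4.55e-05) and was lower in BKO than in WT intact limbs (-0.71 ± 0.11, limma adjusted p = 9.13e-05). Acvr1, a type I receptor of BMPs, stood at 159 ± 21.8 in BKO ligated and 75.8 ± 8.58 in BKO intact libraries, and at 141 ± 41.5 in WT ligated and 149 ± 53.4 in WT intact libraries. Its ligation effect differed between the genotypes (1.11 ± 0.30, limma adjusted p = 0.0328). Acvr1 was the 1 receptor of 9 to pass for the interaction, where 6.01% of all genes passed. It did not pass without BKO ligated libraries 4 and 5 (0.96, limma adjusted p = 0.16), nor without any 1 of BKO ligated 4 or 5, BKO intact 1, 2 or 4, WT ligated 2 or 5 and WT intact 3 or 4 (adjusted p up to 0.0837). In intact limbs 4 of 9 were lower in BKO than in WT (9.75% of all genes were). Acvr1c, 1 of these 4, did not pass with a pseudocount of 5 (limma, adjusted p = 0.11) or with no filter (adjusted p = 0.0642). Nor did it pass with only the intact libraries in the fit (limma, adjusted p = 0.107) or without WT intact library 3 (adjusted p = 0.142). In ligated limbs 0 of 9 passed with limma, edgeR or DESeq2 (1 at an unadjusted limma p under 0.05, Bmpr1b), where 8.84% of all genes passed with limma. Without BKO ligated libraries 4 and 5, the count for ligation in BKO was 4 of 9 (3 higher and 1 lower).

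Of 16 other Smads and intracellular regulators, 3 rose and 4 fell with ligation in BKO (22.1% and 25.1% of all genes). In WT 2 rose and 3 fell (18.7% and 21.1% of all genes). These counts stand no higher than the shares of all genes that passed, 47.2% in BKO and 39.8% in WT. Smad4, the partner of all receptor-activated Smads, had the smallest p of the list in both genotypes. It averaged 289 ± 76.1 normalized counts in BKO ligated and 545 ± 104 in BKO intact libraries, and 313 ± 42.3 in WT ligated and 712 ± 71.6 in WT intact libraries (limma, adjusted p = 0.000114 and 1.01e-05). Smad2, which acts beside Smad3, averaged 75.0 ± 18.7 in BKO ligated and 111 ± 16.8 in BKO intact libraries and fell there (limma, adjusted p = 0.00573), and Smad5 of the BMP branch fell in both genotypes (limma, adjusted p = 0.00373 in BKO and 0.0186 in WT). The Smad5 fall in WT did not pass without intact library 2 or ligated library 4 (adjusted p = 0.0571 and 0.0862). Smad1, also of the BMP branch, rose in both (0.54 ± 0.13 in BKO and 0.49 ± 0.13 in WT, limma adjusted p = 0.00223 and 0.00597). Zfyve9, which encodes SARA, the anchor that presents Smad2 and Smad3 to the receptor, was lower in BKO than in WT limbs. It averaged 803 ± 62.8 in BKO against 1101 ± 120 in WT ligated limbs and 876 ± 52.7 in BKO against 1195 ± 88.0 in WT intact limbs, with no overlap (-0.45 ± 0.09 and -0.45 ± 0.08, limma adjusted p = 0.00173 and 0.000335). It was the only 1 of 16 to pass in ligated limbs (8.84% of all genes passed). In intact limbs 1 was higher and 3 were lower in BKO (8.56% and 9.75% of all genes). Without BKO ligated libraries 4 and 5, 2 of the 16 passed with ligation in BKO (1 higher and 1 lower), the BKO changes of Smad2, Smad5 and Smad1 did not pass (limma, adjusted p = 0.0689, 0.0600 and 0.102), and Zfyve9 missed the threshold in ligated limbs (-0.35, limma adjusted p = 0.0529).

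Of 20 tested extracellular activators and inhibitors (24 listed), 10 rose and 1 fell with ligation in BKO (22.1% and 25.1% of all genes). In WT 6 rose and 2 fell (18.7% and 21.1% of all genes). The median log2 fold change of the list was 0.54 in BKO and 0.35 in WT. Wfikkn2 fell in both (1.86 ± 0.19 lower in BKO and 1.72 ± 0.19 lower in WT, limma adjusted p = 1.77e-07 and 5.05e-07). Thrombospondin 1, encoded by Thbs1 and an activator of latent TGF-beta, averaged 140 ± 14.6 in BKO ligated and 39.0 ± 7.67 in BKO intact libraries, and 112 ± 9.32 in WT ligated and 61.9 ± 11.5 in WT intact libraries. It rose in both (limma, adjusted p = 1.49e-08 and 0.00016), and more in BKO (interaction 0.97 ± 0.22, limma adjusted p = 0.0136). Ltbp4, a protein that binds latent TGF-beta to the matrix, averaged 901 ± 85.2 in BKO ligated and 429 ± 64.7 in BKO intact libraries, and 1070 ± 153 in WT ligated and 720 ± 114 in WT intact libraries, and rose in both (limma, adjusted p = 1.3e-06 and 0.00132). Its relative Ltbp1 rose in both (0.60 ± 0.12 in BKO and 0.38 ± 0.12 in WT, limma adjusted p = 0.000279 and 0.0141). Its rise in WT did not pass without ligated library 6 (adjusted p = 0.0746). Fbn1, the microfibril protein fibrillin 1, rose in WT (0.87 ± 0.13, limma adjusted p = 2.98e-05). In intact limbs 7 of 20 were lower in BKO than in WT and 0 higher, where 9.75% and 8.56% of all genes were. Among those with the smallest p were Ltbp4 (-0.74 ± 0.12, limma adjusted p = 0.000179), Ltbp1 (-0.59 ± 0.11, adjusted p = 0.000672) and Ltbp3 (-0.51 ± 0.11, adjusted p = 0.0029). In ligated limbs 1 of 20 passed, where 8.84% of all genes did. This 1 was decorin, encoded by Dcn, a proteoglycan that binds TGF-beta and myostatin (2113 ± 349 in BKO against 2932 ± 319 in WT libraries, limma adjusted p = 0.0421). The decorin difference did not pass without BKO ligated 2, 4 or 5, WT ligated 2, 5 or 6, or WT intact 5 or 6 (adjusted p up to 0.151), nor without BKO ligated 4 and 5 together (adjusted p = 0.362). The Thbs1 interaction ended without that pair too (adjusted p = 0.0817), as it did with the fixed replicate block (0.83, adjusted p = 0.131). Without WT ligated library 6, 4 of 20 passed with ligation in WT (3 higher and 1 lower).

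Of 13 tested genes known as targets of TGF-beta or Smad2/3 (15 listed), 8 rose and 1 fell with ligation in BKO (22.1% and 25.1% of all genes). In WT 9 rose and 0 fell (18.7% and 21.1% of all genes). The median log2 fold change of the list was 0.83 in BKO and 0.72 in WT. The fibrillar collagen genes led the list: Col1a1 averaged 2924 ± 542 normalized counts in BKO ligated and 834 ± 52.2 in BKO intact libraries, and 3367 ± 300 in WT ligated and 1002 ± 241 in WT intact libraries. Col3a1 averaged 6611 ± 1776 in BKO ligated and 1886 ± 224 in BKO intact libraries, and 7339 ± 1402 in WT ligated and 1669 ± 198 in WT intact libraries (limma, adjusted p = 1.16e-08 and 1.33e-09). Between genotypes in ligated limbs, 3 of 13 passed and all 3 were lower in BKO (4.68% of all genes were). Pmepa1, which encodes a protein that keeps Smad2 and Smad3 from the receptor, was lower in BKO in both limbs (-0.88 ± 0.24 and -0.82 ± 0.22, limma adjusted p = 0.0267 and 0.011), and Tgfbi, a matrix protein gene, in ligated limbs (-0.57 ± 0.16, limma adjusted p = 0.0334). In intact limbs 2 of 13 were lower and 1 higher in BKO (9.75% and 8.56% of all genes). The 1 higher was Skil, which encodes the Smad corepressor SnoN (0.36 ± 0.12, limma adjusted p = 0.045). Skil missed the threshold with TMM scaling, with no filter on low values and without any 1 of BKO intact 1, 2 or 4, WT intact 2, 3, 5 or 6 and WT ligated 2 (adjusted p up to 0.117). In ligated limbs Pmepa1 and Tgfbi did not pass with only the ligated libraries in the fit (adjusted p = 0.112 and 0.0682), without BKO ligated library 2 (adjusted p = 0.0866 and 0.0582) or without WT ligated library 6 (adjusted p = 0.103 and 0.0586), and 1 of 13 passed in each case. Without BKO ligated libraries 4 and 5 Tgfbi did not pass (adjusted p = 0.199). Nor did it pass without BKO ligated library 5 or WT ligated library 2 or 5 (limma, adjusted p = 0.131, 0.0846 and 0.0901). Pmepa1 did not pass in ligated limbs without BKO ligated library 6 or WT ligated library 4 (limma, adjusted p = 0.0602 and 0.0788). In intact limbs DESeq2 called 5 of 13 (1 higher and 4 lower).

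Of 7 targets of the BMP branch, 4 rose with ligation in BKO and 2 in WT (22.1% and 18.7% of all genes), and 0 fell (25.1% and 21.1% of all genes). Id3, an inhibitor of DNA binding, averaged 136 ± 14.0 normalized counts in BKO ligated and 55.3 ± 7.27 in BKO intact libraries, and 139 ± 37.5 in WT ligated and 69.2 ± 14.5 in WT intact libraries (limma, adjusted p = 5.98e-06 and 0.00015). Between genotypes in intact limbs, 1 of 7 passed (18.3% of all genes did), Smad9 (4.81 ± 2.63 in BKO against 16.5 ± 4.23 in WT libraries, limma adjusted p = 0.00209). In ligated limbs 0 of 7 passed with limma, edgeR or DESeq2 (0 at an unadjusted limma p under 0.05), where 8.84% of all genes passed with limma. The count for ligation was 2 in BKO without BKO intact library 4, without BKO ligated library 2 or with only BKO libraries in the fit, and 1 in WT without WT intact library 3 or 5 or WT ligated library 4 or 5. Smad9, Smad6 and Skil each stand in 2 of the lists.

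**Figure D5:**
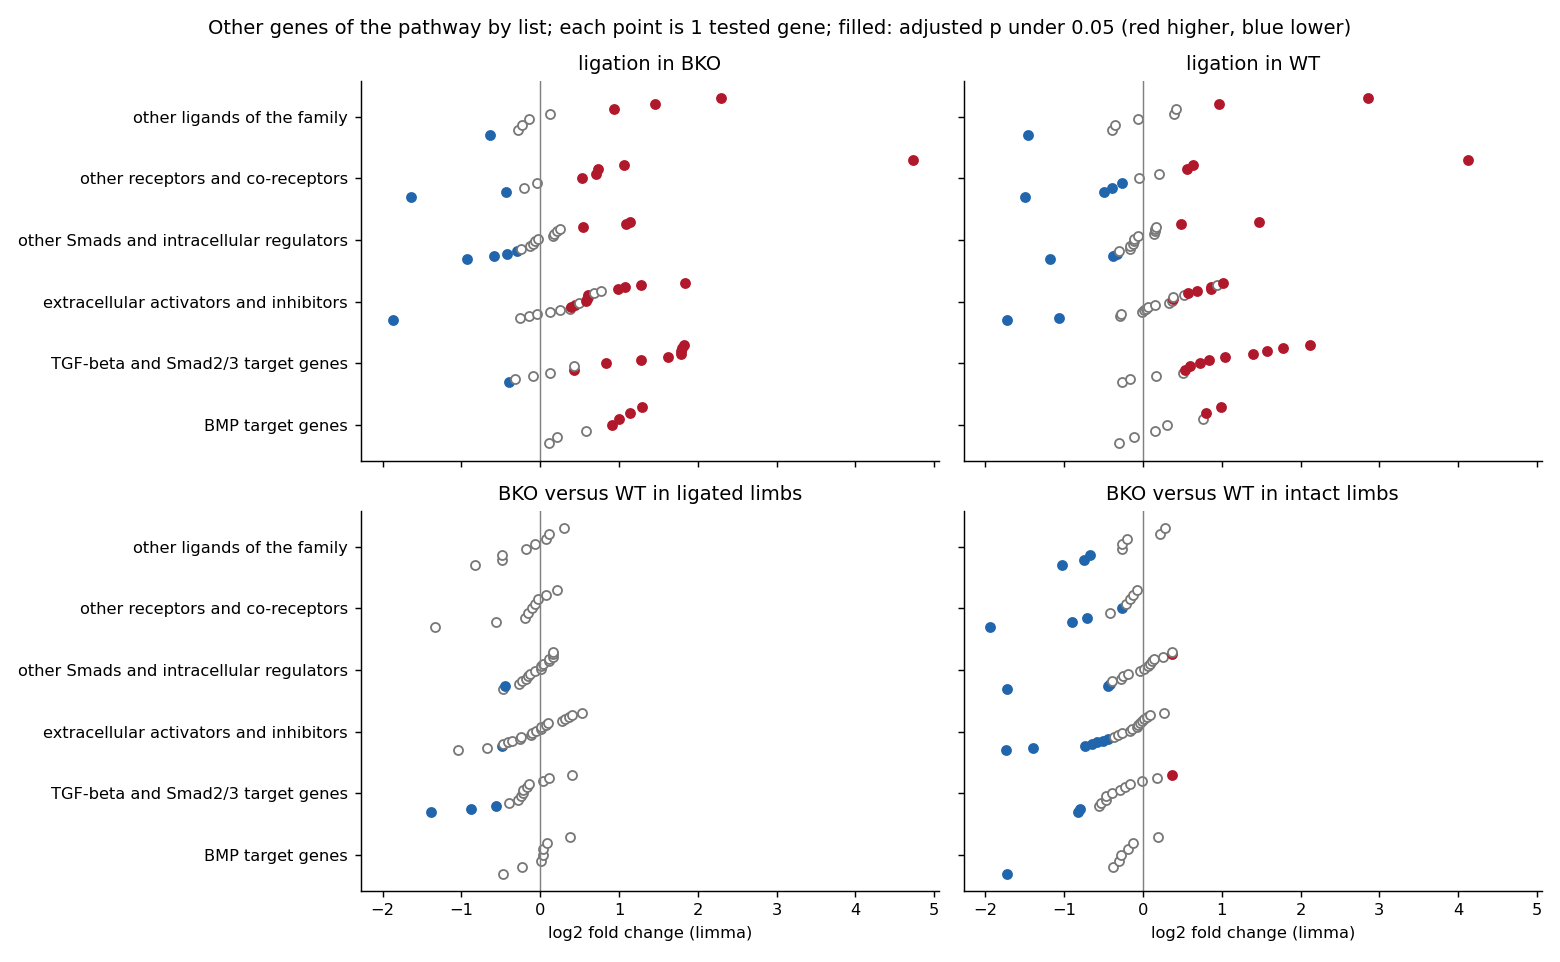
Log2 fold change from limma (x axis) of each tested gene (point) of the 6 lists around the members (rows), in 4 comparisons (panels), filled where the adjusted p was under 0.05. With ligation the targets and extracellular regulators lie mostly to the right of 0, and between genotypes in intact limbs the filled points lie mostly to the left.

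Markers of other cells moved with ligation beside these genes. With ligation 22.1% of all genes rose and 25.1% fell in BKO, and 18.7% rose and 21.1% fell in WT. Of 7 endothelial markers, 6 rose in BKO and 5 in WT, with a summed level of 3745 to 5007 normalized counts in BKO ligated and 2218 to 2850 in BKO intact libraries, and 3306 to 4420 in WT ligated and 2122 to 2640 in WT intact libraries. Of 6 markers of fibro-adipogenic progenitors, the connective tissue cells of muscle, 3 rose in BKO and 4 in WT, with sums of 1478 to 1960 in BKO ligated and 976 to 1489 in BKO intact libraries, and 2094 to 2221 in WT ligated and 1250 to 1524 in WT intact libraries. Of 6 tested macrophage markers, 0 passed in BKO with limma, edgeR or DESeq2 (1 at an unadjusted limma p under 0.05) and 3 rose in WT, with sums of 291 to 488 in BKO ligated and 213 to 379 in BKO intact libraries, and 515 to 624 in WT ligated and 309 to 447 in WT intact libraries. Without BKO intact library 1 or 5, 1 macrophage marker rose in BKO. For the interaction 0 of the 6 passed in limma, where 6.01% of all genes did, and 1 passed without BKO intact library 3. Of 7 myofibre markers, 3 fell and 1 rose in BKO and 4 fell and 1 rose in WT. With no filter on low values, 2 myofibre markers fell and 0 rose in WT. Without BKO ligated library 4, 1 progenitor marker rose in BKO. In each of these lists 0 markers were at 0 in all libraries of a group, as was so for the fat cell list. Their part in the ligation differences of Tgfb1, Acvr2b, Mstn, Smad3, Acvr1c and the target genes was not tested.

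Between genotypes, fewer markers moved. In BKO 4.16% of all genes were higher and 4.68% lower in ligated limbs, and 8.56% and 9.75% in intact limbs. In ligated limbs the myofibre genes Mylpf (0.69 ± 0.11, limma adjusted p = 0.00015) and Myh4 (0.45 ± 0.13, limma adjusted p = 0.0337) were higher in BKO than in WT. The connective tissue marker Dpt (-0.86 ± 0.15, limma adjusted p = 0.000836), the macrophage marker Csf1r (-0.90 ± 0.21, limma adjusted p = 0.00974) and the fat cell marker Lep (-1.64 ± 0.45, limma adjusted p = 0.0249) were lower. Of the 6 fat cell markers, 4 were lower in BKO with edgeR or a pseudocount of 5, 2 with DESeq2 and 3 with only the ligated libraries in the fit, and 0 passed without BKO ligated library 5 or 6 or WT ligated library 5 or 6. The myofibre count was 1 in place of 2 with no filter, with only the ligated libraries in the fit, without BKO ligated library 2 or 4, WT ligated library 2, 4 or 6, or BKO ligated libraries 4 and 5 together. Without that pair 0 macrophage markers passed. Without BKO ligated library 6 alone, 2 connective tissue and 2 macrophage markers passed. In intact limbs, 3 of 5 tested markers of smooth muscle and pericytes were lower in BKO, with a summed level of 4188 to 5161 normalized counts in BKO against 5166 to 6806 in WT libraries. Rgs5 made up most of that sum (means of 3548 in BKO and 4671 in WT). Rgs5, Pdgfrb, Notch3 and Tagln averaged lower in BKO. Myh11 (488 in BKO and 457 in WT) and the untested Cnn1 (9.24 and 6.68) averaged higher. In the same limbs 0 of 6 connective tissue markers and 0 of 7 endothelial markers passed with limma, edgeR or DESeq2 (0 and 1 at an unadjusted limma p under 0.05). The part of these markers in the genotype differences of Tgfb3, Tgfb2, Acvr1b, Tgfbr2 and the extracellular regulators was not tested.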

How the data were processed

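Total RNA of 18 mouse tibialis anterior muscles was sequenced with a TruSeq kit that keeps the strand (per the labels' protocols). The authors deposited 1 table of normalized counts per gene, treated here as a signal; the submitters' processing notes name Trimmomatic 0.33, STAR 2.5.2, RSEM 1.3.3, DESeq2 and the mm10 build, with no role or order. These values are not corrected for gene length, and the sources used here do not give the strand setting. Each value was a whole number of reads times 1 step per library (100% of values within 0.001), which gave recovered reads and depths of 14089381 to 25629204 reads per library; few reads limit the precision of low genes, and intervals on tests cover the spread between libraries. For 2 libraries the step lay close to 1 read, where this check says less.

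Groups were taken from the sample titles, and 0 sample columns were left unmapped. The 12262 of 20922 genes with a mean of at least 10 normalized counts went into limma 3.58.1, on log2(normalized count + 1), in R 4.3.3 (eBayes with trend), with all 18 libraries in 1 fit of 4 group means, Benjamini-Hochberg adjustment over all tested genes and a threshold of 0.05. The comparisons were ligated against intact limbs in each genotype, BKO against WT in each limb, and the interaction. The script was tested on simulated data. The members, the pathway and marker lists and the alternatives were chosen with earlier results of these data known. All 10 members are named; of each other list, genes are named from the up to 4 with the smallest limma p in a comparison; the 5 genes nearest to Mstn are named too. Bmpr1b in ligated limbs, Ltbp1 and Smad5 with ligation in WT, and Ttll5 were named after their values were seen. Gene coordinates and exon lengths came from GENCODE M21 and promoter windows from RefSeq GRCm38.p6.

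Alternatives were a pseudocount of 5, no filter, TMM scaling, edgeR 4.0.16 (quasi-likelihood) and DESeq2 1.42.0 on the recovered reads, only the groups compared, a replicate block, each library left out in turn, and the pair of BKO ligated libraries richest in mt-Rnr2 left out. The limbs share replicate numbers within a genotype, but the labels do not say that a number marks 1 animal. Some genes of the lists are counted in the lists but not reported here by name.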

Additional observations from a re-analysis of the deposited data

Results flagged for a closer look

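Mstn in WT ligated library 5 stood at 103 normalized counts, apart from the 61.8 to 65.6 of the other 3 libraries of its group. Tgfb2 stood apart in the same library, at 232 normalized counts against 152 to 164 in the other 3. The gap to the nearest library over the range of the group was 0.906 for Mstn and 0.850 for Tgfb2. These were the 2 cases among the 40 groups examined (10 genes in 4 groups), where chance gives about 1 in 20.

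The ligation effect on Mstn differed between the genotypes: the log2 change in BKO minus the log2 change in WT was 0.78 (limma interaction, adjusted p = 0.0371), so Mstn fell less in BKO. Without WT ligated library 5 this value was 0.95 and passed. It did not pass in 12 of the 18 omissions of a single library, with no filter on low values (adjusted p = 0.0521), with the fixed replicate block (adjusted p = 0.0957) or without BKO ligated libraries 4 and 5 (adjusted p = 0.111).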

How the results depend on the processing

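Over 50 pairs of a member and a comparison and 27 alternatives, 1260 of 1320 values kept direction and side of the threshold, 26 no longer passed, 22 newly passed and 12 changed sign. With 1 library left out, the members that passed numbered 7 to 8 for ligation in BKO, 5 to 7 for ligation in WT, 2 to 4 and 4 to 5 between genotypes in ligated and intact limbs, and 0 to 1 for the interaction. The interaction count was 1 as reported, 0 with no filter on low values, 0 with the fixed replicate block, 0 without BKO ligated libraries 4 and 5, and 2 with DESeq2. The signs that changed were all of differences that had not passed. BKO minus WT in ligated limbs ranged over the omissions from -0.11 to 0.23 for Smad7 and from -0.062 to 0.34 for Tgfb1, and was -0.090 and -0.11 without BKO ligated libraries 4 and 5; in intact limbs Smad3 ranged from -0.072 to 0.043. The Tgfb2 interaction was -0.028 with the fixed replicate block. The cause was not tested.

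Over all genes, 737 passed for the interaction, against 1194 with DESeq2, 382 with the fixed block, 402 and 461 without WT ligated library 2 or 5, and 269 without BKO ligated libraries 4 and 5; between genotypes in ligated limbs 616 passed without those 2, against 1084. Same-numbered limbs did not deviate together (r -0.0638 to 0.0478), so the numbers were not taken as pairs. The random replicate block changed no call of a member; the fixed block also ended the Tgfbr1 fall in BKO (adjusted p = 0.101) and passed the Tgfb1 rise in WT (adjusted p = 0.0296). TMM scaling moved the median of all genes by at most 0.1. Low read numbers limit Tgfb1.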

Other observations

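Other cell type markers were measured with ligation too, where 47.2% of all genes passed in BKO and 39.8% in WT. With the fixed replicate block, 2 tendon markers passed in BKO and 1 in WT, and 1 red blood cell gene in BKO. Without BKO ligated libraries 4 and 5, 0 red blood cell genes passed in BKO, and 1 without BKO ligated library 6. Of 5 tendon markers, 4 rose in BKO, and 1 rose and 1 fell in WT, with summed levels of 988 to 1888 normalized counts in BKO ligated and 667 to 886 in BKO intact libraries, and 1161 to 1692 in WT ligated and 763 to 1211 in WT intact libraries. Of 5 tested markers of smooth muscle and pericytes, 3 rose in each genotype. Of 2 tested satellite cell markers, 1 rose in BKO with limma. Both rose in BKO with edgeR, DESeq2, a pseudocount of 5 or only BKO libraries in the fit, or without WT intact library 5. In WT 0 passed with limma, edgeR or DESeq2 (0 at an unadjusted limma p under 0.05). The 3 satellite cell markers summed to 67.4 to 74.9 in BKO ligated and 21.1 to 45.3 in BKO intact libraries, and to 40.5 to 54.3 in WT ligated and 32.3 to 65.2 in WT intact libraries. Of 3 Schwann cell markers, 1 fell in BKO and 1 rose in WT. In WT 0 Schwann cell markers passed with the fixed replicate block or without WT intact or WT ligated library 6, and 2 without WT intact library 5. Of 3 red blood cell genes, 2 fell in BKO and 0 passed in WT (limma, edgeR and DESeq2; 0 at an unadjusted limma p under 0.05). None of 4 lymphocyte markers reached the level for testing, and their sum was at most 15.3 normalized counts in any library.

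Between genotypes in intact limbs, the myofibre gene Mylpf (0.66 ± 0.09, limma adjusted p = 4.0e-05) and the Schwann cell gene Mbp (0.52 ± 0.16, limma adjusted p = 0.0241) were higher in BKO. Pax7, a satellite cell marker, averaged 19.3 in BKO against 33.7 in WT libraries (limma adjusted p = 0.0363), the tendon genes Fmod and Mkx were lower in BKO (-0.84 and -1.47, limma adjusted p = 0.00756 and 0.0243), and so was Lep (-1.43, limma adjusted p = 0.0159). Pax7 did not pass with edgeR, with no filter, with only the intact libraries in the fit or without any 1 of BKO intact 1, 2 or 4 or WT intact 3, 4 or 6. Of the tendon genes 1 in place of 2 passed with DESeq2 or without BKO intact 1 or 2 or WT intact 3 or 6, and of the fat cell genes 0 passed with a pseudocount of 5 and 2 without BKO intact 3 or 5, BKO ligated 6 or WT intact 3. Of the Schwann cell genes 2 passed with edgeR, with DESeq2 or without BKO ligated 4, WT intact 4 or WT ligated 6, and Mbp did not pass without BKO intact 1 or WT intact 3 or 6.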
